A study of Mus musculus with 24 samples.

Results

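The response of C2C12 cells to differentiation medium was examined at 2% oxygen, by comparing cells moved to that medium with cells left in growth medium at the same oxygen level. The cells are the C2C12 line, established mouse myoblasts. The genes described are those with a mean of at least 1 FPKM (a fragment count scaled to transcript length and library size) in either hypoxic group. This rule kept 11639 of the 24043 genes in the deposited table, and 17045 genes were above 0 in at least 1 hypoxic library. Growth medium was DMEM with 10% fetal bovine serum and antibiotics, and differentiation medium was DMEM with 2% horse serum and an insulin, transferrin and selenium supplement. Differentiation medium was renewed on days 2, 3 and 4, and the labels used here do not give the day of harvest. Each medium had replicates A and B at 2% oxygen. Another 4 libraries, replicates A and B of the same media at 21% oxygen, served for 1 further comparison. The series calls A and B biological replicates without saying whether they were separate cultures, so p-values measure the spread between these libraries alone. The other 16 of the 24 samples, from chromatin immunoprecipitation and its inputs, are outside this comparison.

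When serum is withdrawn, cultured myoblasts leave the cell cycle, switch on myogenin, fuse and make the proteins of the sarcomere. Low oxygen is known to hold this programme back, and the hypoxia-inducible factors (HIF) raise genes of glucose uptake and glycolysis. Serum also carries cholesterol in lipoproteins. Cells that are short of sterol release the transcription factor SREBP2 from the endoplasmic reticulum, which raises genes of sterol synthesis and of lipoprotein uptake, and several enzymes of that pathway use molecular oxygen.

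Of the 11639 genes, 3034 (26.1%) changed at a Benjamini-Hochberg adjusted p under 0.05 in limma on log2(FPKM + 1). The calls were 1751 higher (15%) and 1283 lower (11%) in differentiation medium, and 852 of the 3034 had a log2 change of at least 1 in size (404 higher, 448 lower). The split between directions depended on scaling, since higher genes made up 57.7% of calls as deposited, 48.7% when libraries were rescaled by median of ratios and 45.5% when rescaled by the upper quartile (the 2 other scalings named below). Both differentiation libraries lay above both growth libraries for 40.9% of genes and below both for 30.8%. Without either growth medium library no gene passed the threshold in limma, while 2313 (without A) and 2217 (without B) genes had an unadjusted p under 0.05. In those fits the lone growth library was assumed to vary like the differentiation pair. Without differentiation medium A 7066 genes passed (4506 higher, 2560 lower) and without B 6099 passed (3097 higher, 3002 lower), where the growth pair alone set the spread. Counts of most gene lists are therefore followed below by the counts without A and without B where these differ by more than 1.5 times and by more than 1 gene. The background for each list count of the main fit is the 15% higher and 11% lower over all genes. After the other scalings it is 12.5% and 13.2% by median of ratios and 11.6% and 13.9% by the upper quartile. Counts without A or without B have a larger background, set by the calls over all genes in those fits. They are not to be read against 15% and 11%. Log2 changes are on the log2(FPKM + 1) scale, so folds of genes with low FPKM appear smaller than they are.

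The libraries held between 15132 and 15672 genes above 0 FPKM at 2% oxygen. Absolute depth was unknown. Relative depth, read from the FPKM steps that single fragments make, was 0.89 and 0.84 in growth medium A and B, 1 in differentiation medium A and 0.633 in differentiation medium B. The differentiation pair stood apart from each other more than any other pair did: 608 genes differed at least 2-fold between A and B, against 54 in hypoxic growth medium, 55 in normoxic growth medium and 46 in normoxic differentiation medium. Against the growth medium mean, A was at least 2-fold higher for 408 genes and lower for 659, and B was higher for 933 and lower for 514. These 2 sets of counts share the growth medium libraries. The 11 myoblast markers examined were above 1 FPKM in each of these libraries. Vim was highest, and Vcam1 was lowest at 3.92, 5.04, 2.70 and 3.73 FPKM (growth medium A and B, then differentiation medium A and B, the order used throughout). Markers of other cell types are given beside the results they touch.

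The promoters of 3 sets of genes, which moved together either between the media or between replicates A and B, are shown first. They were taken by gene symbol from RefSeq on build GRCm38.p6 (250 bases before to 50 bases after each start). The authors' table was made on mm9, so these coordinates belong to the sequences alone. Of the 11639 genes, 8699 had a promoter sequence there. The first set is sterol synthesis and uptake, shown because it holds the largest rises. Capitals mark CCAAT on either strand (ATTGG where it lies on the strand opposite to the gene), the box that binds NF-Y, a known partner of SREBP.
Msmo1 (chr8:64733529-64733828, minus strand): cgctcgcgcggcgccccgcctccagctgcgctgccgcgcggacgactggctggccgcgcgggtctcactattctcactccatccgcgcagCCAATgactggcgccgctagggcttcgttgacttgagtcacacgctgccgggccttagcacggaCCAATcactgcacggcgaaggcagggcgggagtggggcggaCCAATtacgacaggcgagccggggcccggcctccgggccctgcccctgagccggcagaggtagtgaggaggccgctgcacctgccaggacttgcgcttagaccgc
Cyp51 (chr5:4104648-4104947, minus strand): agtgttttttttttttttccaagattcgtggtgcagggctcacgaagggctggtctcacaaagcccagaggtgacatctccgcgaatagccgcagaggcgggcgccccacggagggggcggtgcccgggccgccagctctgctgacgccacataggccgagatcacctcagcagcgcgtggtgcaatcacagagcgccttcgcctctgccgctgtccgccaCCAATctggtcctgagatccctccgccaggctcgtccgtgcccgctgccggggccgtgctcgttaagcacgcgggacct
Idi1 (chr13:8885356-8885655, plus strand): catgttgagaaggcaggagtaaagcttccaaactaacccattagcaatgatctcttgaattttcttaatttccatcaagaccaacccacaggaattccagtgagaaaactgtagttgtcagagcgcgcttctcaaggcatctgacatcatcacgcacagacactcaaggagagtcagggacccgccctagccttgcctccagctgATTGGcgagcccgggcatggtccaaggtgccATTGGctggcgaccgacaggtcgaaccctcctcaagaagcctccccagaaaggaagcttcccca
Insig1 (chr5:28071162-28071461, plus strand): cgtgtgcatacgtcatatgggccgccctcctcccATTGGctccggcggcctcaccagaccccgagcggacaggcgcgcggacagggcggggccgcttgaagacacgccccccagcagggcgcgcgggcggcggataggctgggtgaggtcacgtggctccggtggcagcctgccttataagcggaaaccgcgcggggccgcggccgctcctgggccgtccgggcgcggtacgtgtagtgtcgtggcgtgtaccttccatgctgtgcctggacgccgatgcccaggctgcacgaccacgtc
A CCAAT box was present in 15 of the 17 sterol genes with a sequence (88.2%), against 43.1% of the 8699 genes. It was not particular to them, being also in 32 of 44 mitosis genes with a sequence (72.7%). The sterol response element TCACNCCAC, searched on both strands, was in 0 of the 17 windows and in 1.31% of the 8699. No match says only that these letters are not in these windows.

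The second set is the endoplasmic reticulum chaperones. Capitals mark the endoplasmic reticulum stress element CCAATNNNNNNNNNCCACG, which includes a CCAAT box, printed on the strand on which it reads in this direction with 8 bases on either side.
Hspa5 (chr2:34772017-34772051, plus strand): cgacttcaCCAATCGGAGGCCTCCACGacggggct
Hsp90b1 (chr10:86705630-86705664, minus strand): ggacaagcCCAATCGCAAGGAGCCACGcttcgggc
Pdia6 (chr12:17266483-17266517, plus strand): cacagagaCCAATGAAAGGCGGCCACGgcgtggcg
Calr (chr8:84847067-84847101, plus strand): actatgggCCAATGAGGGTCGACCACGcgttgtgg
Dnajc3 (chr14:118937819-118937853, plus strand): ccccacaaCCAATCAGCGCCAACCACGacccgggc
Creld2 (chr15:88819512-88819546, minus strand): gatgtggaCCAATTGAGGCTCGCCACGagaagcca
Syvn1 (chr19:6046524-6046558, plus strand): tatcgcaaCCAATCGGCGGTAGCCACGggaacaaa
These 7 genes are the ones that hold the element among the 18 chaperone list genes with a sequence (38.9%). Hsp90b1 holds it at 2 places, of which 1 is shown, and 14 of the 8699 genes (0.161%) held the element. The motif lay within the window in either orientation, opposite to the gene for Calr and Creld2.

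The third set is mitosis genes, shown because they separate replicate A from replicate B. Capitals mark TTTGAA, the cell cycle homology region, a promoter element of genes that are repressed in resting cells.
Cdc20 (chr4:118437344-118437373, minus strand): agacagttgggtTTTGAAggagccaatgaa
Aurka (chr2:172370521-172370550, minus strand): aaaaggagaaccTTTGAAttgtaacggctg
Ccnb2 (chr9:70421704-70421733, minus strand): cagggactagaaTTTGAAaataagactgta
Mki67 (chr7:135716478-135716507, minus strand): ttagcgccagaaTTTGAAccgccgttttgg
This element, on either strand, was in 30 of the 44 mitosis genes with a sequence (68.2%) and in 6 of the 37 replication and G1/S genes (16.2%), against 13.8% of the 8699 genes. Each match is a match of letters and not a measured binding site. The lists were written by pathway, so motif shares here and below describe the lists and do not bear on the response to medium.

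Sterol synthesis and uptake genes had the largest median rise of any list examined. Of 25 tested genes 22 rose and 0 fell, with a median log2 change of 3.18, against 15% higher and a median of 0.08 over all genes tested. In all 25 both differentiation libraries lay above both growth libraries, and B lay above A. A further gene of the list, Hmgcs1, is listed at 0 in all 8 libraries, as are 6129 genes of the table. The summed level of the 26 genes was 124.4 and 129.3 FPKM in growth medium and 1296 and 2061 FPKM in differentiation medium. Bulk values cannot separate a change in RNA per cell from a change in the share of cells that express a gene, here or below.

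**Figure D1:**
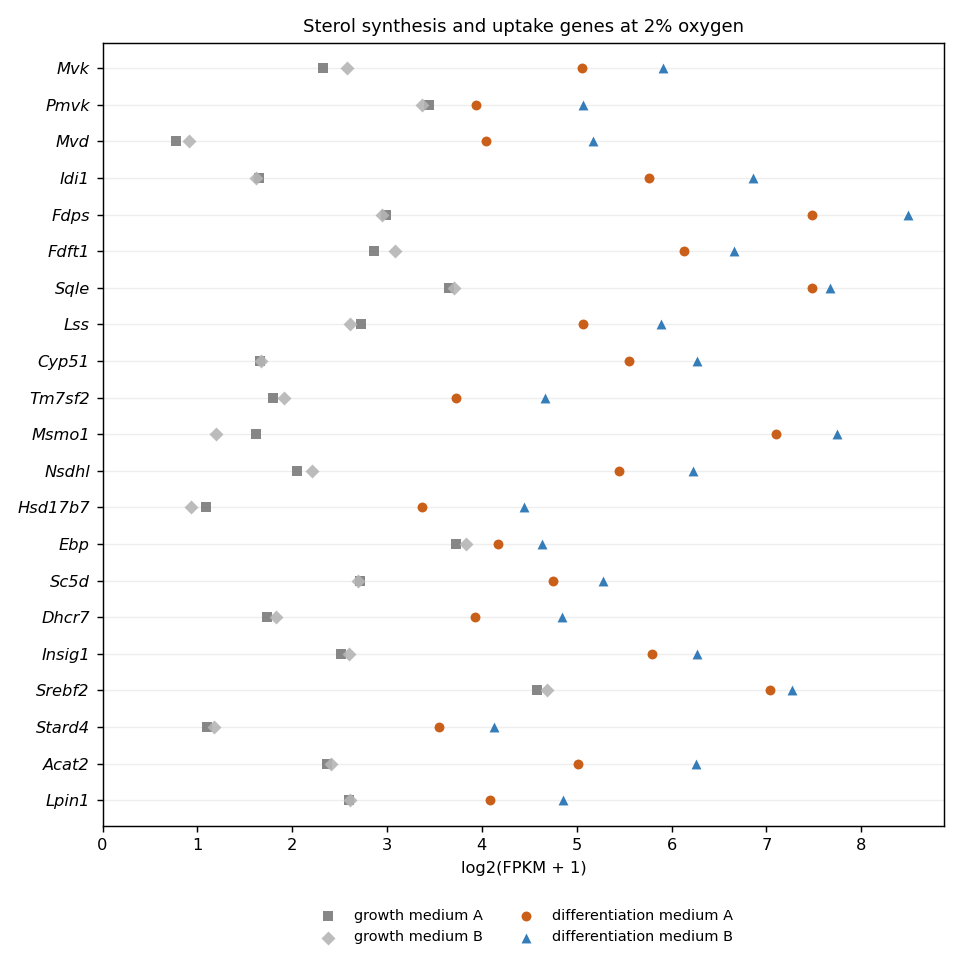
Level of 21 of the 25 tested sterol synthesis and uptake genes, as log2(FPKM + 1), in the 4 libraries at 2% oxygen; each symbol is 1 library. In the 21 genes drawn both differentiation medium libraries lie to the right of both growth medium libraries, with B to the right of A.

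The early part of the pathway makes isoprenoid units from acetyl-CoA. The kinase Mvk rose from 4.03 and 4.97 FPKM to 32.3 and 58.9 FPKM and the decarboxylase Mvd from 0.715 and 0.876 FPKM to 15.4 and 34.9 FPKM. Phosphomevalonate kinase (Pmvk) stood at 9.89 and 9.30 FPKM in growth medium and 14.3 and 32.4 FPKM in differentiation medium, which did not pass the threshold (adjusted p 0.108). Idi1, which isomerises isopentenyl diphosphate, rose from 2.14 and 2.08 FPKM to 53.4 and 115 FPKM (log2 change 4.68 ± 0.38, adjusted p 0.0103). Fdps, the farnesyl diphosphate synthase, rose from 6.92 and 6.72 FPKM to 177 and 359 FPKM, which is 39.3-fold between means (log2 change 5.02 ± 0.35, adjusted p 0.00935). B lay above A by 1.09 log2 units for Idi1 and by 1.01 for Fdps, and both libraries lay far above growth medium.

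The middle steps join farnesyl units and close the sterol rings. Squalene synthase (Fdft1) rose from 6.30 and 7.4998 FPKM to 69.1 and 100.04 FPKM, squalene epoxidase (Sqle) from 11.6 and 12.01 FPKM to 178 and 203 FPKM and lanosterol synthase (Lss) from 5.63 and 5.09 FPKM to 32.6 and 58.3 FPKM. All 3 enzymes were separated between the media without overlap. Sqle had close replicates in both media and an adjusted p of 0.0034 (log2 change 3.90 ± 0.10).

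The later steps trim lanosterol to cholesterol. Msmo1, the oxidase that removes methyl groups at carbon 4, had the largest rise among genes that reached 10 FPKM, small RNA genes aside, and stood at 2.06 and 1.30 FPKM in growth medium and 136 and 213 FPKM in differentiation medium. This was a log2 change of 6.01 ± 0.27 (adjusted p 0.00689) and 104-fold between means. The lanosterol demethylase Cyp51 rose from 2.17 and 2.19 FPKM to 45.8 and 76.3 FPKM (log2 change 4.24 ± 0.26). Both genes were near 2 FPKM in growth medium and far above it in both differentiation libraries. Nsdhl rose from 3.15 and 3.61 FPKM to 42.5 and 74.1 FPKM, Hsd17b7 from 1.13 and 0.903 FPKM to 9.33 and 20.8 FPKM, Tm7sf2 from 2.47 and 2.78 FPKM to 12.3 and 24.4 FPKM, Sc5d from 5.56 and 5.49 FPKM to 25.9 and 37.7 FPKM and Dhcr7 from 2.32 and 2.55 FPKM to 14.2 and 27.7 FPKM. Ebp stood at 12.3 and 13.2 FPKM in growth medium and 16.9 and 23.8 FPKM in differentiation medium and did not pass (adjusted p 0.0753).

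Genes that control the pathway moved with the enzymes. Insig1, which retains SREBP precursors in the endoplasmic reticulum, rose from 4.73 and 5.07 FPKM to 54.4 and 76.3 FPKM. Srebf2, which encodes SREBP2, rose from 22.9 and 24.7 FPKM to 130.02 and 154 FPKM. The retention factor and transcription factor genes were thus both higher in A and in B than in growth medium. The sterol carrier Stard4 rose from 1.15 and 1.25 FPKM to 10.7 and 16.5 FPKM, Acat2 from 4.15 and 4.30 FPKM to 31.3 and 75.7 FPKM and the phosphatidate phosphatase Lpin1 from 5.06 and 5.12 FPKM to 15.9 and 27.9 FPKM.

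At 21% oxygen the same change of medium had a median log2 change of -0.34 over these 25 genes, and 24 of the 25 had a positive interaction (the 2% change minus the 21% change), against 36.2% of all genes. Dhcr7 was the exception, with an interaction of 0.62 (adjusted p 0.198). The starting points differed as well, since the summed list level in growth medium was 479.8 and 460.1 FPKM at 21% oxygen and 124.4 and 129.3 FPKM at 2%. In differentiation medium it was 356.3 and 360.5 FPKM at 21% oxygen.

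Fatty acid synthesis genes rose with a smaller size. Of 19 tested, 14 rose and 1 fell, with a median log2 change of 0.88. Fads2, the delta-6 desaturase, rose from 4.87 and 4.80 FPKM to 48.3 and 98.3 FPKM (log2 change 3.58 ± 0.35, adjusted p 0.0124). ATP citrate lyase (Acly), which supplies acetyl-CoA, rose from 14.5 and 14.4 FPKM to 64.8 and 103 FPKM, fatty acid synthase (Fasn) from 10.6 and 11.5 FPKM to 37.8 and 67.3 FPKM and the acetoacetyl-CoA synthetase Aacs from 14.9 and 16.1 FPKM to 53.7 and 78.8 FPKM. Srebf1, the gene of SREBP1, rose from 21.9 and 24.4 FPKM to 38.8 and 44.6 FPKM. Acsl1, a ligase that activates fatty acids, was the 1 gene that fell, from 3.48 and 3.47 FPKM to 1.60 and 1.20 FPKM. Fads1 (18.3, 19.4, 23.9 and 34.4 FPKM) and Acsl4 (8.22, 6.47, 11.2 and 13.5 FPKM) did not pass the threshold, although both differentiation libraries lay above growth medium. The CCAAT box was in 11 of 16 promoters of this list (68.8%) and the sterol response element in 1 of them.

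Alpha-class glutathione S-transferases, which conjugate reactive lipids and drugs to glutathione, gave further very large rises. Gsta1 stood at 1.92 and 1.17 FPKM in growth medium and 210.2 and 54.2 FPKM in differentiation medium (log2 change 5.42 ± 0.68, adjusted p 0.015) and Gsta2 at 0.329 and 0.336 FPKM in growth medium and 51.4 and 14.0 FPKM in differentiation medium (log2 change 4.40 ± 0.62, adjusted p 0.0175). Their near-identical relatives Gm3776 (1.70, 1.18, 177 and 44.8 FPKM) and Gm10639 (0.169, 0.454, 38.6 and 10.7 FPKM) had the same shape, so how fragments were shared among these copies is uncertain. Gsta4, which acts on lipid aldehydes, rose from 49.998 and 50.6 FPKM to 723 and 281 FPKM. Here the order of the replicates was the reverse of the sterol genes, since A was 3.88-fold above B for Gsta1 and 2.58-fold for Gsta4, and A and B both lay above the growth libraries.

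The wider list of NRF2, glutathione and antioxidant genes did not move one way. NRF2 is a transcription factor that raises detoxifying enzymes under oxidative stress. Of 34 tested genes 12 rose (35.3%, against 15% of all genes) and 6 fell (17.6%, against 11%), with a median log2 change of 0.28. The pentose phosphate enzyme Taldo1 rose from 29.4 and 31.3 FPKM to 84.5 and 92.0 FPKM (log2 change 1.51 ± 0.09), and so did heme oxygenase Hmox1 (70.5, 72.7, 239 and 173 FPKM) and the peroxidase Prdx1 (197, 186, 429 and 390.4 FPKM). Gstm1 (178, 189.6, 103 and 69.7 FPKM), Mgst1 (14.4, 15.4, 7.54 and 5.82 FPKM) and extracellular superoxide dismutase Sod3 (51.5, 57.2, 28.0 and 25.0 FPKM) fell. Sod1 (428, 451, 416 and 321 FPKM) and Ephx1 (256, 268, 392 and 249 FPKM) did not pass. The antioxidant response element TGACNNNGC was in 8 of 27 promoters of the list (29.6%), against 17% of the 8699.

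**Figure D2:**
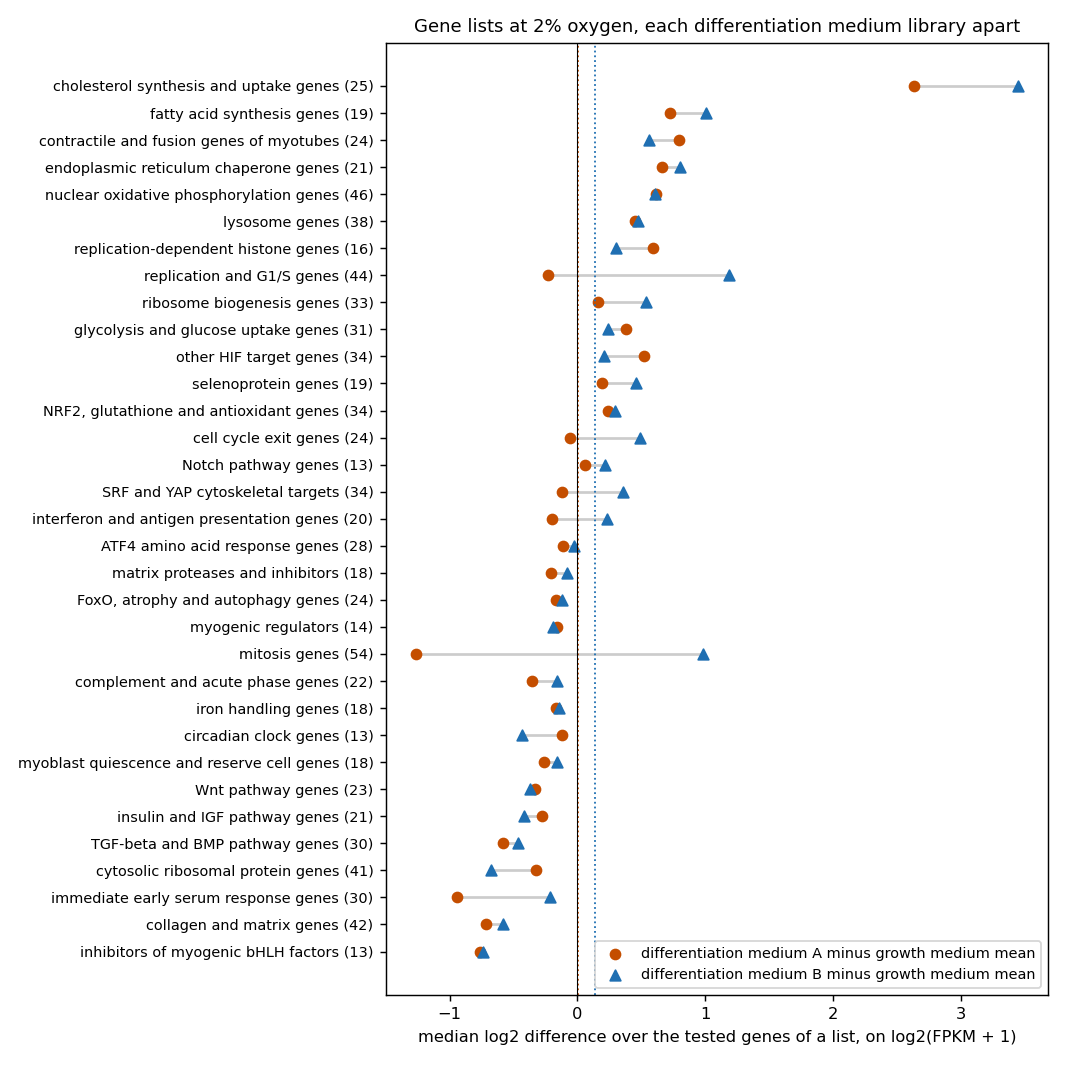
Median difference from the growth medium mean, on log2(FPKM + 1), over the tested genes of each list with at least 10 of them (number in brackets), for differentiation medium A (circles) and B (triangles); dotted lines mark the same median over all 11639 genes. The sterol list lies far to the right in both libraries, and the mitosis and the replication lists have the widest gaps between A and B.

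Endoplasmic reticulum chaperones, which fold secreted and membrane proteins, rose together. Of 21 tested genes 17 rose and 0 fell, with a median log2 change of 0.74. Without A and without B the count was again 17 higher, with 2 lower. Among the genes whose stress element is printed above, Calr rose from 301 and 292 FPKM to 739.5 and 849 FPKM (log2 change 1.41 ± 0.11), Hspa5, the chaperone BiP, from 159 and 154 FPKM to 346 and 394 FPKM (log2 change 1.23 ± 0.10), and Creld2 from 15.1 and 15.9 FPKM to 51.2 and 64.8 FPKM (log2 change 1.83 ± 0.14). In each of these both differentiation libraries were clear of growth medium. Hsp90b1 rose from 303 and 278 FPKM to 402 and 433 FPKM (not called after either other scaling), Pdia6 from 107 and 106 FPKM to 172 and 187 FPKM, Dnajc3 from 11.01 and 9.64 FPKM to 16.2 and 21.6 FPKM and Syvn1 from 17.2 and 18.5 FPKM to 27.0 and 31.9 FPKM. The largest rise of the list was Sdf2l1 from 7.88 and 8.18 FPKM to 38.3 and 41.2 FPKM (log2 change 2.17 ± 0.09, adjusted p 0.00672), followed by Creld2 and by Hyou1 from 9.38 and 10.99 FPKM to 33.9 and 42.3 FPKM. Herpud1 (129, 125, 129 and 114 FPKM) and Xbp1 (67.2, 70.0, 54.5 and 43.5 FPKM), which also respond to unfolded proteins, did not pass the threshold. At 21% oxygen the median log2 change of the 21 genes was 0.12. The interaction was positive for 12 and negative for 6 of them as deposited (11 and 7 by median of ratios). Over all genes, as deposited, it was positive for 36.2% and negative for 15.7%. Single genes differed, since the change of Hspa5 at 2% oxygen was close to that at 21% (1.31), with an interaction of -0.07 ± 0.13 (adjusted p 0.648). Herpud1 rose by 2.94 at 21% and had an interaction of -3.01 (adjusted p 3.42e-05).

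Nuclear genes of oxidative phosphorylation, the respiratory chain and ATP synthase of mitochondria, rose by small amounts. Of 46 tested 35 rose and 0 fell, with a median log2 change of 0.58 (24 rose when rescaled by median of ratios and 22 by the upper quartile, with 0 falls in both). Their medians were 0.61 in A and 0.61 in B. Cytochrome c (Cycs) rose from 4.98 and 4.45 FPKM to 14.0 and 24.2 FPKM, the complex III subunit Uqcrq from 117 and 130.1 FPKM to 394 and 405 FPKM, the complex I subunit Ndufa1 from 48.8 and 45.5 FPKM to 105 and 129 FPKM and the complex IV subunit Cox6a1 from 250.2 and 286 FPKM to 599.9 and 659 FPKM. Cox4i1 (361, 390.3, 385 and 395 FPKM) and Atp5h (209.7, 213, 259 and 257 FPKM) did not pass. The median change at 21% oxygen was 0.52, and the interaction was positive for 10 and negative for 4 of the 46 genes (6 and 15 when rescaled by median of ratios). Over all genes, as deposited, it was positive for 36.2% and negative for 15.7%, so as deposited the list did not exceed the background either way. By median of ratios, 2816 of all genes tested were positive and 2725 negative. The 15 negative genes of the list were then a larger share than that of all genes, so this reading depends on scaling.

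Lysosome genes rose in part, with 47.4% called higher and 7.89% lower, against 15% and 11% of all genes. Of 38 tested 18 rose and 3 fell, with a median log2 change of 0.49 (5 fell without A and 6 without B). The membrane glycoprotein Lamp1 rose from 226 and 216 FPKM to 586 and 549 FPKM (log2 change 1.36 ± 0.09) and the proton pump genes Atp6v1h from 15.5 and 13.8 FPKM to 32.8 and 43.3 FPKM and Atp6ap1 from 80.0 and 78.8 FPKM to 198 and 177 FPKM. The cathepsin Ctsf fell from 35.5 and 36.9 FPKM to 15.8 and 14.2 FPKM. Psap (766, 809, 650.03 and 681 FPKM) and Cd63 (507, 519.8, 623 and 603 FPKM) did not pass. Cd68, a lysosomal membrane protein used as a macrophage marker, rose from 3.19 and 3.19 FPKM to 25.8 and 42.8 FPKM (log2 change 3.03 ± 0.26, adjusted p 0.0108). It was 1 of 2 macrophage markers of 10 that passed the filter, and the other, Cd14, stood at 11.1, 10.9, 7.202 and 11.4 FPKM. The other 8 were under 1 FPKM in these libraries, with the defining markers Emr1 and Tyrobp at 0 in all 4 and Ptprc at 0 in 3. The 10 markers summed to 15.2 and 15.2 FPKM in growth medium and 33.8 and 55.3 FPKM in differentiation medium, where Cd68 made up most of the sum. Their part in the lysosome result was not tested.

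Genes of the HIF response gave higher counts that depended on scaling, with 2% oxygen shared by both media. Among 31 tested genes of glycolysis and glucose uptake 10 rose (32.3%, against 15% of all genes) and 2 fell, with a median log2 change of 0.34. After either other scaling 3 rose (9.68%), against 12.5% of all genes by median of ratios and 11.6% by the upper quartile. Without A 17 rose and 7 fell, and without B 18 rose and 5 fell. The glycogen branching enzyme Gbe1 rose from 39.1 and 38.4 FPKM to 109.7 and 81.1 FPKM and the aldolase Aldoc from 34.7 and 38.6 FPKM to 66.5 and 69.8 FPKM, while the pyruvate dehydrogenase kinase Pdk2 fell from 10.8 and 11.8 FPKM to 4.50 and 3.61 FPKM. Pgk1 (3132, 3205, 2523 and 2217 FPKM) and Pkm (2679.7, 2852, 3541 and 3088 FPKM) did not pass. Among 34 other HIF targets 9 rose (26.5%) and 1 fell (16 and 6 without A, 22 and 3 without B). After either other scaling 7 rose (20.6%). The lipase inhibitor Angptl4 rose from 54.1 and 60.8 FPKM to 144 and 152 FPKM, the carbonic anhydrase Car12 from 33.2 and 29.8 FPKM to 81.8 and 69.9 FPKM, Higd1a from 199.6 and 198 FPKM to 469 and 368 FPKM and the hormone Stc1 from 7.203 and 6.66 FPKM to 18.0 and 13.2 FPKM. Mt1 (5168, 5250.1, 5749 and 4739.6 FPKM) and Mt2 (5293, 5209, 5247 and 3046 FPKM), the metallothioneins, did not pass. The core ACGTG of the hypoxia response element was in 19 of 25 promoters of these targets (76%) and in 18 of 30 of the glycolysis list (60%), against 30% of the 8699. The targets were listed as HIF genes, so these shares describe the lists and do not bear on the response to medium.

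Of 14 tested myogenic regulators 1 rose (7.14%, against 15% of all genes) and 4 fell (28.6%, against 11%), with 2 rises without A or without B and 6 falls without B. Myogenin (Myog), which drives terminal differentiation, stood at 0.342 and 0.442 FPKM in growth medium and 4.49 and 2.14 FPKM in differentiation medium (log2 change 1.58 ± 0.31, adjusted p 0.0304). A and B both lay above growth medium at a low level, with A the higher. At 21% oxygen it stood at 11.1 ± 3.19 FPKM in growth medium and 2609 ± 47.0 FPKM in differentiation medium (SD, n = 2), and the interaction was -6.20 ± 0.39 (adjusted p 6.08e-05). Myod1, the factor that commits cells to muscle, fell from 25.1 and 26.1 FPKM to 6.95 and 11.8 FPKM (log2 change -1.40 ± 0.25, adjusted p 0.0264). Myf5 stood at 9.89 and 9.55 FPKM in growth medium and 8.58 and 8.45 FPKM in differentiation medium and did not pass (adjusted p 0.263). The stem cell factor Pax7 fell from 15.6 and 15.9 FPKM to 10.2 and 8.96 FPKM and the MyoD partner Tcf12 from 35.1 and 33.998 FPKM to 22.2 and 22.7 FPKM, while Tcf3 (44.1, 45.9, 38.1 and 39.0 FPKM) did not pass. Mef2c, a partner of myogenin in muscle gene activation, stayed at or under 0.0167 FPKM in the 4 libraries.

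Contractile and fusion genes, summed, stood near their growth medium level. The 52 genes of the list came to 231.8 and 251.8 FPKM in growth medium and 212.4 and 269.1 FPKM in differentiation medium, against 32030 and 32140 FPKM in differentiation medium at 21% oxygen. Of the 52, 24 passed the filter, with 6 called higher and 2 lower (14 and 4 without A, 15 and 4 without B, and 1 lower after either other scaling). The sum is weighted to abundant genes such as desmin and does not show the direction of low ones. Over the 24 the median log2 change was 0.77. Both differentiation libraries lay above both growth libraries in 16 genes and below in 5, against 40.9% and 30.8% of all genes. A gene near 0 in growth medium enters these 24 only through its differentiation level, so these counts and the median are not read further. Acta1, skeletal actin, rose from 1.49 and 1.91 FPKM to 6.47 and 5.06 FPKM and the acetylcholine receptor subunit Chrna1 from 17.8 and 15.5 FPKM to 27.7 and 38.0 FPKM. The troponin Tnnc1 fell from 26.0 and 28.6 FPKM to 18.99 and 13.8 FPKM, a call lost after either other scaling, and Mustn1 from 35.0 and 39.4 FPKM to 4.34 and 11.4 FPKM (log2 change -2.23 ± 0.43). Desmin (Des, 60.3, 66.4, 28.6 and 53.1 FPKM) and the muscle enolase Eno3 (60.2, 66.7, 62.9 and 93.6 FPKM) did not pass.

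Inhibitors of the myogenic bHLH factors fell. The Id proteins lack a DNA-binding region and bind the partners of MyoD. Of 13 tested inhibitors 10 fell and 1 rose, against 11% lower over all genes, and the count of falls was again 10 without A, without B and under either other scaling (2 rose without B). Id3 stood at 116 and 114 FPKM in growth medium and 13.8 and 26.1 FPKM in differentiation medium (log2 change -2.54 ± 0.31, adjusted p 0.0144), Id1 at 22.5 and 22.9 FPKM in growth medium and 4.50 and 9.45 FPKM in differentiation medium (log2 change -1.65 ± 0.33) and Id2 at 90.0 and 79.1 FPKM in growth medium and 26.3 and 38.9 FPKM in differentiation medium (log2 change -1.37 ± 0.21). In all 3, A was lower than B and both were below growth medium. Hey1, a Notch target, fell from 6.65 and 5.94 FPKM to 2.22 and 1.94 FPKM and had the opposite direction at 21% oxygen (1.26, interaction adjusted p 9.61e-05). The epithelial-mesenchymal factors Snai1 (35.5, 39.5, 21.7 and 24.4 FPKM), Snai2 (39.6, 34.8, 20.1 and 18.4 FPKM) and Zeb1 (19.9, 18.5, 10.7 and 11.1 FPKM) fell as well. Bhlhe41 (17.2, 17.5, 34.2 and 24.9 FPKM) was the 1 that rose as deposited and did not pass after either other scaling, and Bhlhe40 (100.2, 101, 121 and 107 FPKM) and Hes1 (9.21, 8.23, 7.54 and 10.55 FPKM) did not pass.

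**Figure D3:**
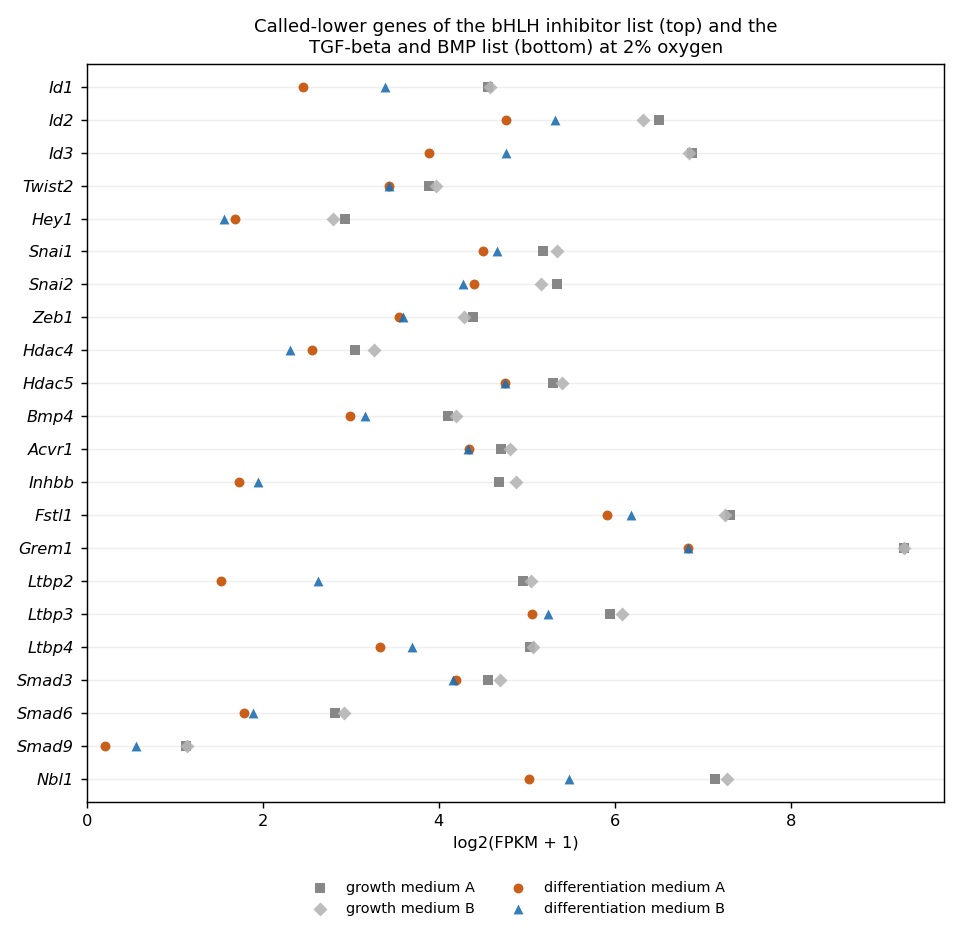
Level, as log2(FPKM + 1), of the genes called lower in the list of bHLH inhibitors and in the list of TGF-beta and BMP pathway genes, in the 4 libraries at 2% oxygen; each symbol is 1 library. Genes not called lower are not drawn, and in the 22 drawn both differentiation medium libraries lie to the left of both growth medium libraries.

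Genes of TGF-beta and BMP signalling also fell. These growth factors are known to restrain myoblast differentiation, and BMP signals raise Id genes. The list had 40% of its tested genes lower and 3.33% higher, against 11% and 15% of all genes. Of 30 tested 12 fell and 1 rose, with a median log2 change of -0.44 (18 fell without A and 19 without B, and 6 and 2 rose). The ligand gene Inhbb, an activin subunit, stood at 24.7 and 28.3 FPKM in growth medium and 2.31 and 2.84 FPKM in differentiation medium (log2 change -2.95 ± 0.14, adjusted p 0.00731). The BMP antagonist Grem1 stood at 626 and 625 FPKM in growth medium and 113 and 113 FPKM in differentiation medium (log2 change -2.46 ± 0.08, adjusted p 0.00424), with almost no spread in either medium. Ltbp2, a matrix protein of the latent TGF-beta binding family, fell from 30.04 and 32.1 FPKM to 1.88 and 5.18 FPKM and the antagonist Nbl1 from 140.2 and 154 FPKM to 31.5 and 43.5 FPKM. The ligand Bmp4 fell from 16.2 and 17.4 FPKM to 6.96 and 7.96 FPKM, and the receptor Tgfbr2, the 1 gene that rose, went from 50.1 and 50.9 FPKM to 116 and 92.3 FPKM. Gdf15 (32.3, 31.8, 33.8 and 129.7 FPKM) and Fstl3 (56.9, 58.7, 65.5 and 92.3 FPKM) did not pass. Smad3, Smad6 and Smad9, which encode signal transducers and an inhibitor of the pathway, also fell, so ligands, antagonists, binding proteins and Smads were all among the falls.

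Collagen and matrix genes fell in part. Of 42 tested 19 fell (45.2%, against 11% of all genes) and 2 rose, with a median log2 change of -0.67 (7 rose without A or without B). Osteopontin (Spp1) stood at 603 and 642 FPKM in growth medium and 126 and 126 FPKM in differentiation medium (log2 change -2.30 ± 0.09, adjusted p 0.00468), biglycan (Bgn) at 343 and 357 FPKM in growth medium and 75.9 and 119 FPKM in differentiation medium and fibulin Fbln1 at 31.5 and 33.0 FPKM in growth medium and 6.63 and 12.6 FPKM in differentiation medium. Each was lower in both differentiation libraries than in either growth library. Periostin (Postn), an exception, rose from 2.63 and 1.98 FPKM to 12.1 and 17.3 FPKM. Fibronectin (Fn1, 986, 1049, 813 and 748 FPKM) and Sparc (911, 914, 1443 and 1094 FPKM) did not pass. Of 18 matrix proteases and inhibitors 3 rose and 3 fell (8 and 6 without A, 7 and 9 without B), with Mmp2 lower (163, 175, 104 and 109.7 FPKM) and Adamts1 higher as deposited (11.1, 10.9, 24.9 and 17.9 FPKM) but not after either other scaling.

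The complement and acute phase list had 8 falls and 4 rises among 22 tested genes (8 rises without A and 7 without B), with Masp1 (38.5, 41.6, 12.9 and 12.7 FPKM) and C1qtnf1 (30.9, 32.5, 8.30 and 6.82 FPKM) lower. Both differentiation libraries were clear of growth medium for each. The falls were 36.4% and the rises 18.2% of the tested list, against 11% and 15% of all genes. Among the largest single falls, the growth factor Hgf fell from 30.4 and 26.4 FPKM to 4.10 and 2.13 FPKM and the ephrin receptor Epha1 from 27.3 and 30.2 FPKM to 4.18 and 2.61 FPKM. Nsg1, a vesicle protein, fell from 127 and 126 FPKM to 13.9 and 16.1 FPKM and the microtubule regulator Stmn2 from 135 and 142 FPKM to 15.7 and 17.8 FPKM (log2 changes -3.003 ± 0.10 and -2.98 ± 0.10). Nrbp2 (50.2, 52.9, 6.78 and 6.15 FPKM), the transporter Slc16a11 (44.5, 45.8, 3.50 and 8.82 FPKM) and the cytokine signalling brake Socs2 (44.9, 42.8, 5.63 and 6.001 FPKM) fell by similar amounts. With Inhbb, Ltbp2, the pseudogene Pisd-ps1 (74.8, 111, 7.203 and 17.3 FPKM) and the ribosomal protein gene Rpl26, described below, the 7 genes from Hgf to Socs2 were 11 of the 12 largest falls outside the small RNAs, and in each both differentiation libraries lay below both growth libraries.

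Lists tied to the insulin, transferrin and selenium supplement and to serum gave mixed counts, to be set against 15% higher and 11% lower over all genes. The shares higher and lower were 9.52% and 23.8% of insulin and IGF genes and 4.17% and 16.7% of FoxO, atrophy and autophagy genes. They were 31.6% and 10.5% of selenoprotein genes, 16.7% each way of iron genes and 6.67% and 26.7% of immediate early genes. Of 21 insulin and IGF pathway genes 5 fell and 2 rose (13 and 4 without A, 11 and 5 without B). Pik3ip1, an inhibitor of phosphoinositide 3-kinase, fell from 49.7 and 46.2 FPKM to 9.36 and 6.88 FPKM (log2 change -2.44 ± 0.16, adjusted p 0.00911), and the RNA H19 fell from 233 and 226 FPKM to 89.5 and 119 FPKM while it rose by 3.64 at 21% oxygen (interaction adjusted p 2.64e-05). Of 24 FoxO, atrophy and autophagy genes 4 fell and 1 rose (10 and 3 without A, 9 and 2 without B, and 7 fell after either other scaling), with the ubiquitin ligase Fbxo32 (atrogin) lower (20.4, 21.2, 5.01 and 7.85 FPKM). Among 19 selenoprotein genes 6 rose and 2 fell (12 rose without A, 4 fell without B), of which the glutathione peroxidase Gpx1 rose from 74.4 and 75.1 FPKM to 133 and 229.9 FPKM and the secreted Gpx3 fell from 277 and 313 FPKM to 109 and 121 FPKM. Among 18 iron genes 3 rose and 3 fell (7 and 8 without A, 6 and 8 without B, and 5 fell after either other scaling), and the ferritin light chain Ftl1 rose from 1615 and 1743 FPKM to 2698 and 2830.1 FPKM but was not called after either other scaling. The immediate early genes that serum induces had 8 falls and 2 rises among 30 (14 and 7 without A, 23 falls without B). Egr1 fell from 28.3 and 28.2 FPKM to 2.84 and 7.12 FPKM and Zfp36 from 18.8 and 18.7 FPKM to 6.68 and 8.60 FPKM, while Atf3 rose from 1.23 and 1.62 FPKM to 5.23 and 14.0 FPKM.

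Cell cycle genes did not give a single answer, because the 2 differentiation libraries lay on opposite sides of growth medium. Of 54 mitosis genes 0 passed the threshold, although all 54 were higher in B than in A and 53 were so by at least 2-fold. Their median difference from growth medium was -1.26 in A and 0.98 in B, and the summed level was 702.5 and 635.5 FPKM in growth medium, 220.6 FPKM in A and 1290 FPKM in B. With replicate A left out nearly all calls in the list were higher, and with replicate B left out all were lower. Both fits called more of all genes than the main fit did, so their numbers of calls are not given here. Of 44 replication and G1/S genes 1 rose (Gins4, 15.6, 15.4, 20.4 and 24.4 FPKM) and 0 fell. The medians were -0.23 in A and 1.19 in B, all 44 were higher in B, and 36 were so by at least 2-fold. Without A every call in this list was higher, and without B more were lower than higher.

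**Figure D4:**
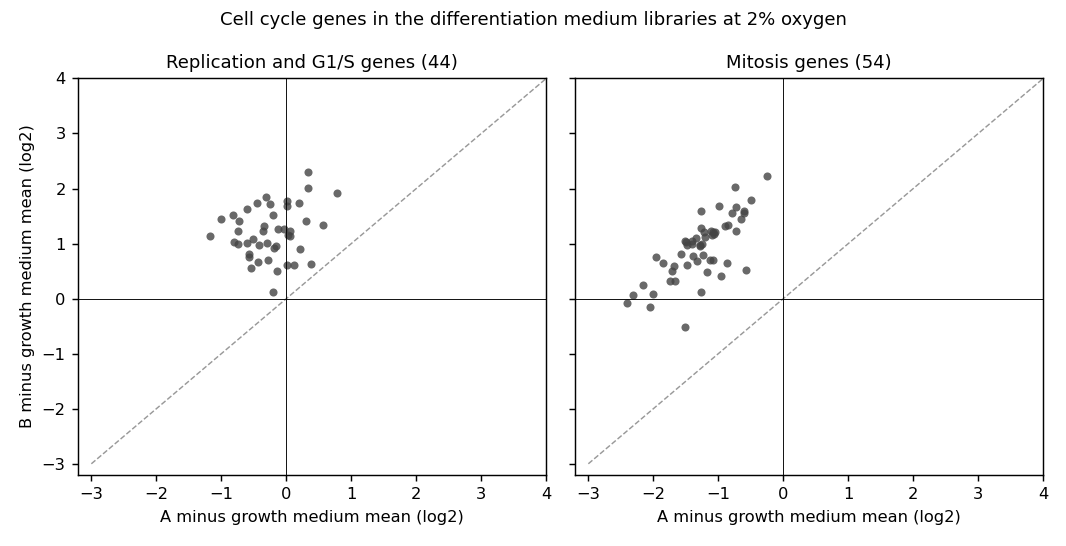
Difference of differentiation medium A (horizontal) and B (vertical) from the growth medium mean, on log2(FPKM + 1), for replication and G1/S genes (left) and mitosis genes (right); each point is 1 gene and the dashed line marks equal differences. Both axes share the growth medium libraries, so the plot shows levels and no relation; all points lie above the line, and the mitosis genes lie left of 0.

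The named cell cycle genes show this at single library level. Ccnb1, the mitotic cyclin B1, stood at 17.7 and 15.7 FPKM in growth medium and 2.35 and 15.7 FPKM in differentiation medium, so that A was below growth medium and B within its range (log2 change -1.24 ± 0.80, adjusted p 0.297). Mki67, the proliferation marker Ki-67, stood at 12.6 and 9.38 FPKM in growth medium and 3.46 and 23.6 FPKM in differentiation medium, with A below and B above both growth libraries (adjusted p 0.891). Cdc20, the activator of the anaphase complex, stood at 22.3 and 22.2 FPKM in growth medium and 8.67 and 69.0 FPKM in differentiation medium, and B was 7.95-fold above A. These 3 genes put A below growth medium in every case and B at or above it. Gtse1 (13.9, 11.8, 10.8 and 81.6 FPKM), the kinase Aurka (9.97, 8.76, 5.19 and 41.1 FPKM), the cyclin Ccnb2 (22.5, 19.7, 4.68 and 36.3 FPKM) and the kinase Pbk (10.1, 8.96, 3.86 and 30.9 FPKM) had the next largest gaps after Cdc20 among genes higher in B with a mean of at least 10 FPKM. Among these BC002163 (0.00884, 0.00845, 0.131 and 72.1 FPKM) alone had a larger gap than Cdc20. Pcna (63.1, 58.9, 90.4 and 156 FPKM), the replication clamp, lay above growth medium in both libraries and did not pass (adjusted p 0.0709). At 21% oxygen Ccnb1 stood at 40.7 ± 2.55 FPKM in growth medium and 6.37 ± 0.287 FPKM in differentiation medium (SD, n = 2).

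Genes higher in A than in B were fewer, 61 against 547 at 2-fold. The largest gap was the ribosomal protein gene Rps27, at 585 and 401 FPKM in growth medium and 671 and 7.69 FPKM in differentiation medium, followed by Scara5 (60.7, 64.3, 54.5 and 12.1 FPKM) and Rpl26 (862, 818, 199 and 46.9 FPKM). Rps27 and Rpl26 have many near-identical processed copies in the genome, so their values are uncertain. Rpl26 was called lower (adjusted p 0.0428). Among 41 cytosolic ribosomal protein genes 10 fell and 0 rose, with a median of -0.50, -0.32 in A and -0.68 in B. The falls numbered 1 when rescaled by median of ratios and 4 by the upper quartile. They numbered 39 without A and 29 without B. Rpl7 (2149, 2246, 1380.5 and 1068 FPKM) and Rpl18 (1181, 1292, 768 and 677 FPKM) were called lower, Rpl7 not by median of ratios, and Rplp1 (7534, 8012, 5902 and 4771 FPKM) did not pass. The ribosomal protein gap between A and B ran opposite to that of most genes, since B lay below A in 39 of the 41 and above A in 7413 of all 11639. B was also the shallower library, and the part of depth in these differences was not tested.

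The cell cycle exit list, which holds genes that arrest dividing cells and also cyclin D genes, had 1 rise and 2 falls among 24. These were 4.17% and 8.33%, against 15% and 11% of all genes. The median difference from growth medium was -0.06 in A and 0.49 in B. Cdkn1a (p21), which blocks cyclin-dependent kinases, stood at 242 and 241 FPKM in growth medium and 257 and 364 FPKM in differentiation medium and did not pass (adjusted p 0.237), whereas its change at 21% oxygen was 3.99 (interaction adjusted p 6.34e-05). Cdkn1b (p27) fell from 73.4 and 64.8 FPKM to 44.9 and 30.9 FPKM (not called after either other scaling) and the cyclin Ccnd3 rose from 57.2 and 60.6 FPKM to 85.0 and 91.4 FPKM. Of 18 genes of quiescent myoblasts and reserve cells 5 rose and 4 fell (8 fell without A and 10 without B). The rises and falls as deposited were 27.8% and 22.2% of that list. Cd34, a surface marker of quiescent satellite cells, rose from 79.9 and 75.9 FPKM to 218 and 143 FPKM (not called after upper-quartile scaling) and the integrin Itga7 from 24.8 and 26.2 FPKM to 57.8 and 88.5 FPKM, while Cxcr4 (45.6, 44.1, 18.4 and 17.9 FPKM) and Gas1 (186, 202, 57.7 and 34.6 FPKM) fell.

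The response to the medium was then compared with that at 21% oxygen by an interaction term in all 8 libraries. That fit pools the spread of all groups, and the hypoxic differentiation pair differs most. Its p-values can therefore be too small where that pair varies, and too large for changes at 21% oxygen alone. It passed the threshold for 6037 genes (51.9%), 4214 of them more positive at 2% oxygen (36.2%) and 1823 more negative (15.7%). The positive share was 69.8% as deposited, 50.8% rescaled by median of ratios and 57.3% by the upper quartile. The median interaction over all genes was 0.30, 0.02 and 0.10 in that order. Small interactions are therefore read against that shift. Of the 3034 genes called at 2% oxygen, 1947 also had an interaction past the threshold.

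**Figure D5:**
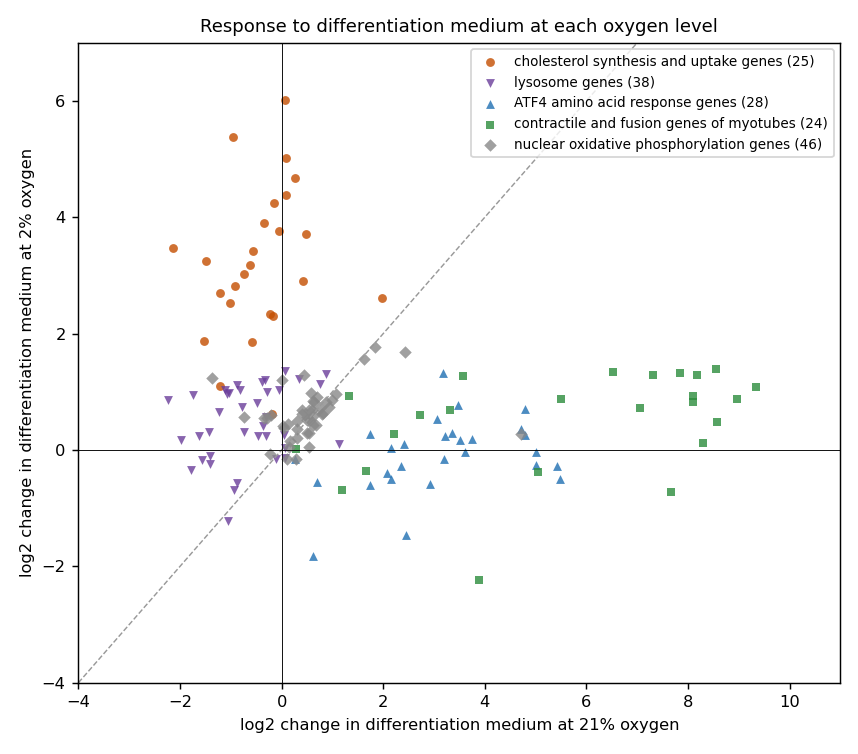
Log2 change in differentiation medium at 21% oxygen (horizontal) against that at 2% oxygen (vertical) for the tested genes of 5 lists; each point is 1 gene and the dashed line marks equal changes. Most sterol genes lie high near 0 on the horizontal axis, most contractile and ATF4 genes lie to the right at lower heights, and most oxidative phosphorylation genes lie near the line.

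Several lists had large median changes at 21% oxygen and medians near 0 at 2%. The 30 listed targets of ATF4, the transcription factor of the amino acid response, differed at the start. In growth medium they summed to 2543 and 2579 FPKM at 2% oxygen and 819.6 and 749.8 FPKM at 21%. In differentiation medium the sums were 2309 and 2088 FPKM at 2% and 4991 and 5079 FPKM at 21%. At 2% oxygen 14.3% were called higher and 10.7% lower, against 15% and 11% of all genes. Their median log2 change was -0.03 at 2% and 3.19 at 21%, and all 28 tested had a negative interaction under each of the 3 scalings. Of these 4 rose and 3 fell at 2% oxygen (10 and 11 without A, 7 and 9 without B, and 1 and 2 after either other scaling). Psat1, of serine synthesis, rose from 59.7 and 59.3 FPKM to 196 and 115 FPKM (not called after either other scaling), Atf5 fell from 379.6 and 401 FPKM to 162 and 122 FPKM and Cebpb from 47.6 and 54.7 FPKM to 16.9 and 11.3 FPKM, while Nupr1 (285, 274, 214 and 161 FPKM) did not pass. Of 20 interferon and antigen presentation genes 2 rose and 3 fell at 2% (9 and 5 without A, 5 and 7 without B). Their median change at 2% was 0.01 as deposited and -0.05 and -0.06 after the other scalings, against 2.03 at 21%, and 17 had a negative interaction. H2-K1, a class I antigen gene, rose from 142 and 143 FPKM to 236 and 236 FPKM, and Irf9 fell from 7.87 and 8.24 FPKM to 5.42 and 5.41 FPKM while it rose by 2.92 at 21%. Lysosome genes differed in the other direction, with a median of -0.75 at 21% oxygen and 28 of 38 positive interactions.

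Among genes called at 2% oxygen whose change had the opposite sign at 21%, Gsta4 had the largest positive interaction (6.805 ± 0.53, adjusted p 0.000127). It stood at 118 ± 2.10 FPKM in growth medium and 8.35 ± 0.298 FPKM in differentiation medium at 21% oxygen (SD, n = 2). The prolactin family genes Prl2c2 (8.01, 7.45, 20.3 and 39.4 FPKM) and Prl2c3 (9.86, 8.52, 21.1 and 38.4 FPKM) rose at 2% and fell at 21% (-4.39 and -4.13), and these near-identical copies may share fragments. Gsta1, with an interaction of 5.95, did not pass at 21% oxygen (-0.52, adjusted p 0.431). In the other direction Tnnc1 had an interaction of -8.37 (adjusted p 4.18e-06) and stood at 20.0 ± 2.42 FPKM in growth medium and 4235 ± 143 FPKM in differentiation medium at 21% oxygen. The growth factor Igf2 (1.36, 1.43, 0.531 and 0.624 FPKM), Mustn1, the calcium channel subunit Cacnb1 (5.56, 5.36, 1.39 and 1.97 FPKM) and Fxyd1, listed at 0 in both hypoxic differentiation libraries after 6.32 and 4.56 FPKM in growth medium, rose at 21% by 5.95, 3.88, 4.45 and 2.36.

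Other pathway lists are set against the 15% higher and 11% lower over all genes. Of 23 Wnt pathway genes 7 fell (30.4%) and 2 rose (8.7%; 13 and 4 without A, 11 and 4 without B), with the ligand Wnt10b lower (20.9, 22.3, 3.43 and 5.89 FPKM) and the secreted Sfrp2 higher (7.46, 7.53, 16.5 and 18.7 FPKM). Of 13 Notch genes 1 rose (Hes6, 26.2, 27.9, 61.9 and 59.1 FPKM) and 1 fell (Rbpj, 42.4, 41.2, 22.8 and 20.5 FPKM), or 7.69% each way, with 6 and 2 without A and 2 and 5 without B. Of 13 clock genes 3 fell (23.1%) and 1 rose (7.69%; 8 fell without A and 6 without B), with Per2 (10.4, 11.2, 3.42 and 2.995 FPKM) and Nfil3 (47.2, 46.8, 25.6 and 25.9 FPKM) lower and Nr1d1 (24.3, 25.0, 41.8 and 53.2 FPKM) higher. Per2 and Nr1d1 encode repressors of the clock loop. Of 34 cytoskeletal targets of SRF and YAP 2 rose and 2 fell (5.88% each; 22 and 5 without A, 5 and 15 without B), Csrp2 being lower (154, 169, 51.4 and 68.5 FPKM) and the LIM domain gene Ajuba higher (23.3, 25.0, 32.2 and 35.7 FPKM), the latter not after upper-quartile scaling. Of 33 ribosome biogenesis genes 2 rose (6.06%) and 1 fell (nucleolin, Ncl, 51.4, 47.4, 35.5 and 38.0 FPKM), with 22 and 5 without A, 14 and 4 without B, and 5 and 2 after either other scaling. Of 16 replication-dependent histone genes, which share sequence among copies, 5 rose (31.2%) and 1 fell (6.25%; 5 fell without A, 11 rose and 3 fell without B, and 3 rose after either other scaling).

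Few markers of other cell types passed the filter. Of 12 adipocyte markers 4 passed the filter and 3 fell, among them Cebpa (8.197, 9.12, 1.75 and 2.46 FPKM), and the list summed to 22.4, 25.4, 7.997 and 11.2 FPKM. Of 12 bone and cartilage markers 3 passed and Runx2 fell (8.36, 8.12, 5.77 and 5.85 FPKM). None of 8 endothelial markers passed, and they summed to at most 1.14 FPKM. Of 8 epithelial markers 2 passed, and Krt19 rose from 91.0 and 97.6 FPKM to 161 and 179 FPKM, while Krt18 was at 0 in all 4 libraries and Epcam was at 0 in both differentiation libraries. The 8 summed to 93.3 and 99.96 FPKM in growth medium and 162.6 and 182.8 FPKM in differentiation medium, nearly all of it Krt19, and to 7.84, 7.42, 3.41 and 3.72 FPKM in the same order at 21% oxygen.

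Some calls were of very short genes. Of the 3034 calls 20 were small RNA genes, whose short length gives 1 fragment a large FPKM. Mir345, Mir29a and Mir31 had the largest such rises and were at 0 FPKM in both growth libraries, with 115 and 182 FPKM for Mir345. The ratio of A to B was 0.6326 for each of the 3 and for the predicted gene Gm12238 (13.05 and 20.6 FPKM), which is the ratio that equal numbers of fragments give in these libraries. Mir678 (475, 1113, 0 and 0.0000200 FPKM), Mir7578 (243, 258, 0 and 0 FPKM) and Mir1966 (61.5, 32.6, 0 and 0 FPKM) had the largest such falls. Of 9 genes called higher with both growth libraries at 0, 7 had this ratio within 0.1%, and 6 were small RNA genes. Of 5 called lower with both differentiation libraries at 0, 3 had the matching ratio of growth medium (0.9441), and 4 were small RNA genes.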

How the data were processed

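RNA from C2C12 cells was sequenced as stranded total RNA libraries, per the labels' protocols. The deposited table holds 1 FPKM value per gene and library, a unit identified from the values. Per the submitters' processing notes the authors used STAR 2.5.1b, Cufflinks 2.2.1 and build mm9, with roles not given. The 2 growth medium and 2 differentiation medium libraries at 2% oxygen were grouped by their labels. Genes with a mean of at least 1 FPKM in either group were compared with limma 3.58.1 (R 4.3.3, intensity trend) on log2(FPKM + 1), with Benjamini-Hochberg adjustment over 11639 genes and a threshold of 0.05. The interaction was fitted on all 8 libraries. The procedure was tested on simulated data with the same spread in both groups, drawn from the growth medium pair. That test did not cover a differentiation pair that varies more. The 4 libraries were fitted alone because the differentiation pair differs more than the other pairs. FPKM hides absolute depth, so counting intervals were not computed, and rows share sequence where genes have near-identical copies.

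The members, gene lists and rules were chosen with earlier results of these data known. Named genes are the 12 largest called rises and falls reaching 10 FPKM without overlap between groups, small RNA genes named apart, and 5 myogenic and cycle genes. They also include the 6 largest gaps each way between A and B, and the 5 largest interactions each way with opposite signs. From each list they include up to 4 called members of at least 5 FPKM and up to 2 uncalled ones. A few genes that meet these rules are not reported here. Further list members were named for their role with values known. Alternatives were other scalings, pseudocounts, filters, variance settings, library sets, a replicate block and leaving out each library.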

Additional observations from a re-analysis of the deposited data

Results flagged for a closer look

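The response to differentiation medium differed between 2% and 21% oxygen, by the interaction term in limma over all 8 libraries, for 6037 of the 11639 genes tested. The values below are the log2 change at 2% minus the log2 change at 21% for the reported genes among the largest rises, falls and interactions and the 5 myogenic and cycle genes of the naming rule, where the interaction passed an adjusted p of 0.05. Other genes described in the report, such as Herpud1, that also passed are not repeated. The groups have 2 libraries each, and the spread is pooled over all of them, so it can be too small where the hypoxic differentiation pair varies.

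Positive values, a response more upward at 2% oxygen, were found for the sterol genes Msmo1 (5.95), Fdps (4.93), Idi1 (4.42), Cyp51 (4.40) and Sqle (4.24). The glutathione S-transferase genes and their relatives were Gsta4 (6.805), Gsta1 (5.95), Gm3776 (5.57), Gsta2 (4.93) and Gm10639 (4.32). The prolactin family genes Prl2c2 (6.14) and Prl2c3 (5.67) were higher by similar amounts. Gm12238 had 4.12, and its differentiation libraries stand at the ratio of equal fragment numbers and its hypoxic growth libraries at 0. Smaller positive values belonged to genes that fell at 2% and fell further at 21%, namely Slc16a11 (1.66), Nsg1 (1.26), Hgf (1.23) and Stmn2 (0.46). The median interaction over all genes was 0.30 as deposited, and the value of Stmn2 is not far from that shift.

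Negative values, a response more downward at 2% oxygen, were found for the muscle genes Tnnc1 (-8.37), Myog (-6.20), Mustn1 (-6.11), Myod1 (-1.92) and Myf5 (-0.73). Igf2 (-6.55), Cacnb1 (-5.73) and Fxyd1 (-5.03) were also negative. Among the largest falls at 2% oxygen were Socs2 (-2.79), Nrbp2 (-2.35) and Inhbb (-0.84). The causes of these differences were not tested.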

How the results depend on the processing

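The 3034 calls (1751 higher, 1283 lower) became 1673 (943 and 730) with a replicate block that pairs the letters A and B. With the crossed replicate block, added after the data were seen, they became 1555 (860 and 695). Letters did not establish a pairing (correlation of deviations -0.17 over 2 pairs), so a call lost under the block is not read as weaker. Fitting all 8 libraries gave 5044 (2898 and 2146), and asking for a log2 change of at least 1 gave 852 (404 and 448). Leaving out 1 library gave 0 to 7066 calls (0 to 4506 higher, 0 to 3002 lower), with 0 when either growth medium library was out and the differentiation pair alone set the spread. The other settings kept all 3 counts within 1.5 times, and for the interaction each setting run did. Among the named genes, leaving out 1 library turned the direction of the uncalled Aurka (-0.74 to 2.02), Ccnb2 (-1.96 to 0.76), Cdc20 (-1.27 to 1.59), Gtse1 (-0.22 to 2.58), Mki67 (-1.41 to 1.05), Pbk (-1.12 to 1.60) and Rps27 (-5.80 to 0.47); the lowest comes without differentiation medium B, and for Rps27 without A. The same held for uncalled genes near 0 change, namely Cd14 (-0.55 to 0.054), Cox4i1 (-0.00122 to 0.11), Eno3 (-0.011 to 0.56), Ephx1 (-0.071 to 0.58), Herpud1 (-0.15 to 0.024), Hes1 (-0.19 to 0.25) and Mt1 (-0.14 to 0.14). Rescaling by median of ratios turned Cox4i1 (-0.025), Hes1 (-0.040) and Mt1 (-0.077), and by the upper quartile the same 3 (-0.045, -0.059 and -0.098). Of 232 genes followed through the settings, including list members not named in the text, 16 lost their call by median of ratios and 17 by the upper quartile. In the text these were, with adjusted p in limma in that order, Adamts1 (0.0591 and 0.0644), Bhlhe41 (0.0914 and 0.09997), Cdkn1b (0.0523 and 0.0522), Ftl1 (0.0678 and 0.0694), Hsp90b1 (0.0588 and 0.0652), Psat1 (0.0502 and 0.0537) and Tnnc1 (0.0588 and 0.0572), with Rpl7 (0.0517) by median of ratios alone and Ajuba (0.0521) and Cd34 (0.0508) by the upper quartile alone. With no filter on low values 46 of the 232 lost their call, and with the replicate block 37. The causes were not tested. With 2 libraries a group and unknown absolute depth, small changes and genes near 1 FPKM are beyond what these data resolve.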

Other observations

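Secreted signals within the lists moved in both directions at 2% oxygen, and the genes here were chosen after their values were seen. The chemokine genes Ccl8 and Ccl7, which attract monocytes, rose from 2.38 and 2.36 FPKM to 6.93 and 9.39 FPKM and from 3.59 and 3.11 FPKM to 6.39 and 9.76 FPKM (adjusted p 0.0147 and 0.0374 in limma). Their relative Ccl2 stood at 4.11 and 4.02 FPKM in growth medium and 7.83 and 20.3 FPKM in differentiation medium and did not pass (adjusted p 0.08). For all 3, both differentiation libraries lay above growth medium, with B the higher. The macrophage growth factor Csf1 fell from 77.9 and 80.6 FPKM to 34.3 and 44.4 FPKM, the cytokine Tslp from 6.40 and 3.91 FPKM to 0.324 and 0.439 FPKM and the complement inhibitor Serping1 from 12.9 and 15.4 FPKM to 5.12 and 5.23 FPKM.

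Binding proteins of insulin-like growth factors also differed among themselves. Igfbp3 rose from 16.2 and 13.2 FPKM to 30.9 and 25.5 FPKM and Igfbp7 fell from 136 and 132 FPKM to 53.6 and 71.6 FPKM. The selenium carrier Sepp1 fell from 16.3 and 13.6 FPKM to 4.67 and 3.92 FPKM, while the collagen cross-linking enzyme Loxl2, a HIF target, rose from 25.7 and 26.9 FPKM to 49.0 and 50.6 FPKM. In these 4 genes the groups did not overlap and both differentiation libraries were on the same side.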
